A study of Mus musculus with 8 samples.

Results

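Egr1, Egr2, Egr3 and Egr4, Nr4a1, Nr4a2 and Nr4a3, Arc, Npas4 and Homer1 are 10 genes that neurons switch on within minutes to hours of activity. They were followed in the nucleus accumbens (NAc) of adult male C3H/HeN mice, with or without maternal separation in early life. The members were taken by symbol: every probe that the array design assigns to these 10 genes was read, which gave 15 probes, and their levels play no part in the rule. The list of genes was itself chosen with earlier results of these data known, so counts over the members describe them and are no separate support. A probe was tested when 4 or more of the 8 arrays showed its signal well above background, and 14 of the 15 probes passed. They covered 9 of the 10 genes, out of 22759 genes with a tested probe, and Egr3 was not tested.

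The series asked how maternal separation (MS) marks the adult brain, and the arrays used here measured RNA from micropunches of the NAc, the ventral part of the striatum, which serves motivation and reward. The MS group held 4 mice that had been taken daily from their dams from postnatal day 2 to postnatal day 14, while the dams underwent chronic unpredictable stress. The control group held 4 mice that stayed with their dams. All were C3H/HeN males, were weaned on postnatal day 21, had worked for sweetened milk in an operant task as adults, and were fasted before the tissue was taken. RNA of each mouse was hybridised on 1 array. The individual numbers in the labels share a leading number in 3 of the 4 MS mice and in 3 of the 4 control mice. The labels do not say whether it stands for a litter or a cage, and the mice were treated as independent. The study assigned litters to the groups. If the number stands for a litter or a cage, the p-values hold little of the spread between litters or cages and may be too small. A litter or cage difference could then not be told apart from one of MS. In whole tissue, fewer cells of a type and less RNA per cell cannot be told apart.

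When a neuron is excited, calcium entry activates kinases that phosphorylate factors already bound to DNA, such as CREB and SRF, and the first genes are transcribed without any new protein being made. Many of these genes, the Egr zinc-finger factors, the Nr4a orphan nuclear receptors and the neuron-specific factor Npas4 among them, encode transcription factors that act on later genes. Others act at the synapse, as do Arc, which drives the removal of AMPA receptors, and the short form of Homer1, which competes with the long forms that tie metabotropic glutamate receptors to their partners. In the striatum, dopamine and glutamate both reach these genes, mainly in medium spiny neurons.

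Promoter sequences were read from RefSeq (build GRCm38.p6) from 250 bases before to 50 bases after the annotated start, 5′ to 3′ on the strand of the gene. The table held 12 promoters of 7 member genes (Egr2, Egr4, Nr4a1, Nr4a2, Nr4a3, Npas4 and Homer1), and Egr1, Egr3 and Arc had no entry. The core of the cAMP response element, TGACG on either strand, is the letters to which CREB is known to bind. It was found in at least 1 promoter of all 7 genes, and in 9 of their 12 promoters, against 20.8% of all 32851 promoters and 23.0% of all 27025 genes in the table. Of the 5 Egr2 starts, 3 lie so close together that their windows hold the same matches, so these promoters are not independent. A match describes letters and not a bound site. The promoters below are shown because Egr4 had the smallest p among the members, Egr2 the largest difference, Nr4a1 and Nr4a3 carry 4 matches each, and Homer1 has several transcripts. Capitals mark TGACG or its reverse complement, and in Egr2 also the CArG box, the site of SRF.
Egr4 (chr6:85513540-85513839, minus strand): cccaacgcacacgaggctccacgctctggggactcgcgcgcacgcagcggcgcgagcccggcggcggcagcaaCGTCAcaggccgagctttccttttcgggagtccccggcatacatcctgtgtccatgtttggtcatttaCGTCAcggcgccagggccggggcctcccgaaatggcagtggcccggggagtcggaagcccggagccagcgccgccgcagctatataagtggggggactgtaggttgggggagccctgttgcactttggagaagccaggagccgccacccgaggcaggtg
Egr2 (chr10:67537619-67537918, plus strand): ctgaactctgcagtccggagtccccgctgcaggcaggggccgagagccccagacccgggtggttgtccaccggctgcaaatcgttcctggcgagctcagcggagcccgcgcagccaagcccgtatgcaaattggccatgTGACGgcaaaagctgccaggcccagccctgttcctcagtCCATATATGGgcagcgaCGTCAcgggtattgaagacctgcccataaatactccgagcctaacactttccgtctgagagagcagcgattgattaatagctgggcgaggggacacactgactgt
Nr4a1 (chr15:101266596-101266895, plus strand): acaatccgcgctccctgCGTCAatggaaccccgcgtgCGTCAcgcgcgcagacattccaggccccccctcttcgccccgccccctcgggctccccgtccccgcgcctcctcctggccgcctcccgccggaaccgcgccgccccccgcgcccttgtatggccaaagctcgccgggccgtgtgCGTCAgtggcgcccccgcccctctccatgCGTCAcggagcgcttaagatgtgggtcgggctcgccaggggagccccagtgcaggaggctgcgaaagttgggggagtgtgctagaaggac
Nr4a3 (chr4:48045055-48045354, plus strand): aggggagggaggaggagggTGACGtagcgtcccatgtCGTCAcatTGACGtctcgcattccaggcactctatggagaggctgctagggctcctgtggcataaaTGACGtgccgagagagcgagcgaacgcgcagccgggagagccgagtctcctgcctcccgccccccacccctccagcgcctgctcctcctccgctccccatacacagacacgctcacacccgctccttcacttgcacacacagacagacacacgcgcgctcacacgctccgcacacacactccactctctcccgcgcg
Homer1 (chr13:93303507-93303806, plus strand): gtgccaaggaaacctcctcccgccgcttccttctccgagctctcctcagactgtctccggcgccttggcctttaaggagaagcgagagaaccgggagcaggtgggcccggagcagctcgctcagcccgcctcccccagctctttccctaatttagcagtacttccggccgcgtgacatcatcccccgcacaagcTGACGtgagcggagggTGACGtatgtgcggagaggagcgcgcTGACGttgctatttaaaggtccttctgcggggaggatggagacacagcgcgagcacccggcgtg

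Egr4 and Egr2 each carried 2 such cores in the sequences above, Homer1 carried 3, and Nr4a1 and Nr4a3 carried 4 each. Counted from the start, those of Homer1 began at -56, -40 and -14, and those of Egr4 at -177 and -109. The CArG box was found in 4 of the 5 Egr2 promoters and in no promoter of the other 6 genes, against 1.63% of all promoters. In the sequence printed for Egr2 it began at -72, between the cores at -111 and -55. The full palindrome TGACGTCA, which holds the core on both strands and occurred in 1.79% of all promoters, was in none of the 12. Neither were the AP-1 site (TGACTCA or TGAGTCA, 5.202%) and the NBRE to which Nr4a receptors bind (AAAGGTCA, 1.51%). The Egr site itself (GCGTGGGCG or GCGGGGGCG, 3.47%) occurred once, in Nr4a1 at -60. All motifs were searched on both strands.

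Levels are log2 signals relative to the 75th percentile of each array, and each difference subtracts the control mean from the MS mean of these log2 levels and has the standard error (SE) and adjusted p of a limma fit to all 33111 tested probes. In this fit no member passed the adjusted threshold of 0.05: the adjusted p of the 9 genes lay between 0.130 and 0.911. Across all tested probes 0.00302% passed it in either direction, which was 1 probe. A fit to the deposited log2 values called 375 probes at the same threshold, 306 lower and 69 higher in MS mice. The study reported the same numbers of changed genes in the NAc. Egr4 passed in that fit (limma, adjusted p = 0.0346). By direction alone, 8 of the 9 genes were higher in MS mice, against 50.6% of all probes tested. Unadjusted limma p-values were under 0.05, with a higher level in MS mice, for 5 of the 9 genes (Egr1, Egr2, Egr4, Nr4a3 and Homer1), against 6.35% of all probes. Of these, Nr4a3 was well above background on 4 MS arrays but only 2 control arrays, so that it met the filter through the MS group. Its place in this count is therefore no support, and with normexp background correction its unadjusted limma p was 0.280. The median difference over the 9 genes was 0.39, against 0.00 over all probes tested. Every MS mouse stood above every control mouse in 1 of the 9 genes, Egr4, and in 4 of the 14 probes, against 3.76% of all probes. Of these 4 probes 3 belong to Homer1, so they are not independent, and the probe that represents Homer1 overlapped. Each of the 4 columns of the slide held 1 MS and 1 control array, and with the column as a block the differences stayed the same, with unadjusted p-values under 0.05 for 7 of the 9 genes (Arc and Nr4a1 in addition), against 5.13% of all probes. Egr2 had the smallest adjusted p (limma with Benjamini-Hochberg adjustment, 0.210), and no member passed the adjusted threshold in this fit either.

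**Figure D1:**
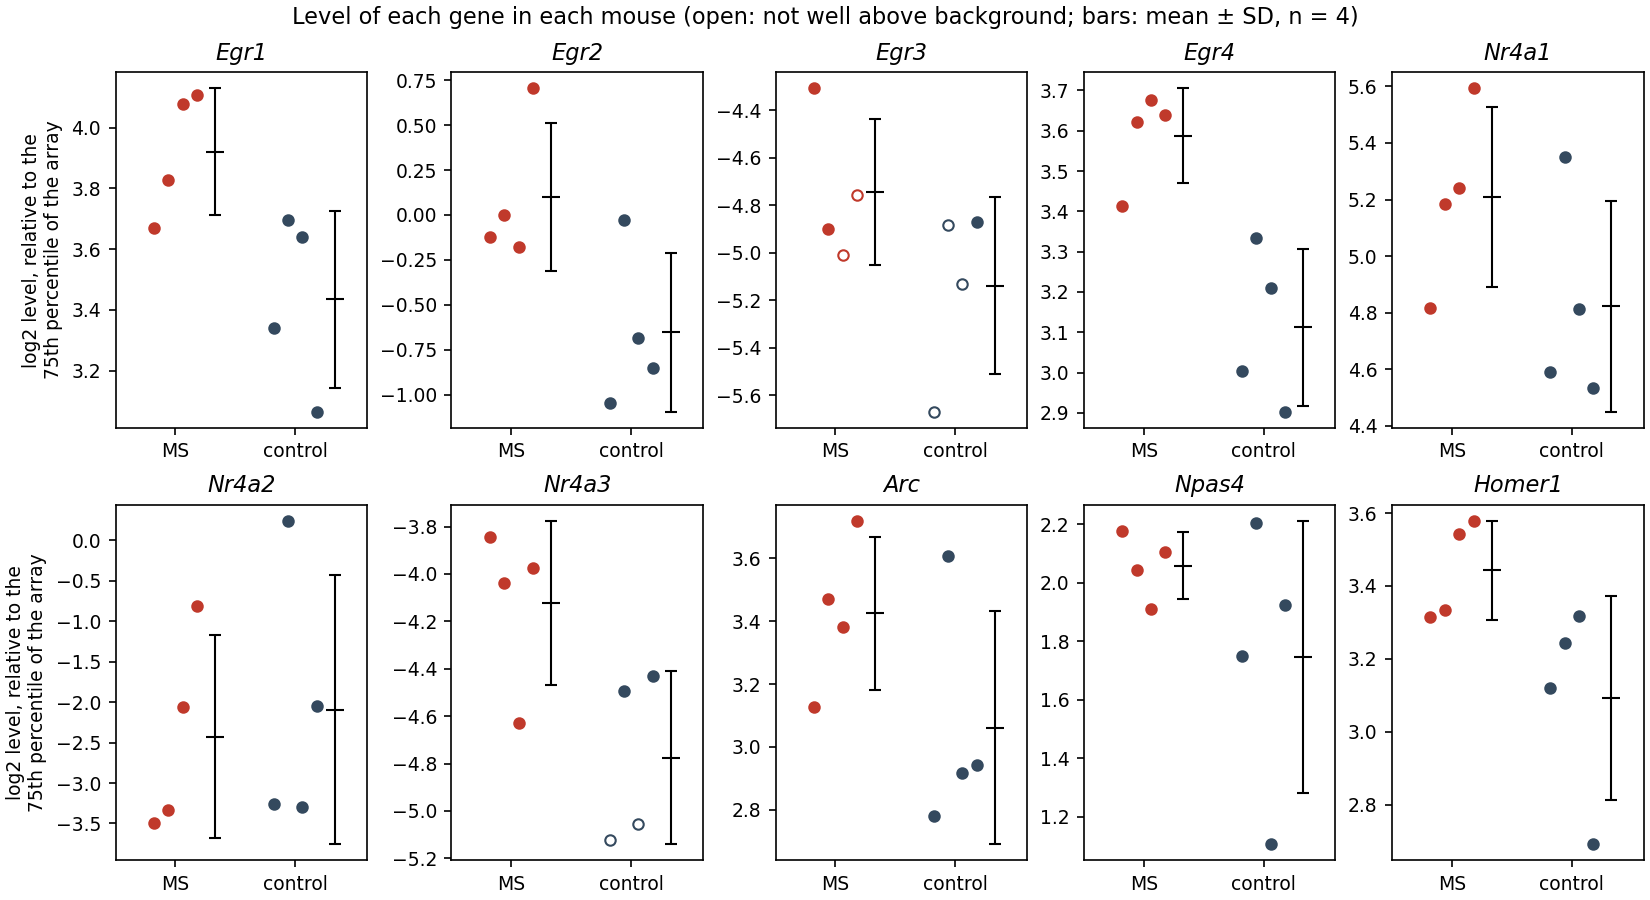
Level of the 10 genes in each mouse, with MS mice on the left and control mice on the right of each panel, as the log2 signal relative to the 75th percentile of the array. Bars give the mean and SD of 4 mice, open points are signals not well above background, and the vertical scales differ between panels. Among these panels the groups are separate only in Egr4, where MS mice lie from 3.41 to 3.68 and control mice from 2.90 to 3.33.

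Egr factors share 3 zinc fingers and a GC-rich target site, and all of those measured were higher in MS mice. Egr4 (chr6:85461153-85461212 of mm9, minus strand), also called NGFI-C, stood at 3.41, 3.62, 3.68 and 3.64 in the MS mice and at 3.004, 3.33, 3.21 and 2.90 in the control mice. The groups did not overlap, although the highest control was only slightly below the lowest MS mouse. The difference was 0.47 (SE 0.11, adjusted p = 0.130), which is a 1.39-fold higher level with a 95% confidence interval of 1.17 to 1.65. This call depended on the processing: Egr4 passed the threshold with normexp background correction (adjusted p = 0.0229, where 0.275% of all probes passed as higher in MS), with the deposited log2 values (adjusted p = 0.0346, 0.221% of probes) and with a moderation of the variance that allows for a trend and for outlying probes (adjusted p = 0.0260, 0.344% of probes). Over all 19 alternatives its adjusted p lay between 0.0229 and 0.627.

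Egr1, the best known of the family and a common marker of recently active neurons, was measured by a probe on chr18:35024395-35024454. It read 3.67, 3.83, 4.08 and 4.11 in the MS mice, against 3.34, 3.70, 3.64 and 3.06 in the control mice. Only the lowest MS mouse fell within the control range, just below the control mouse at 3.70. The difference was 0.49 (SE 0.16, adjusted p = 0.240). Egr2, which also controls myelination in peripheral nerve, differed most of all members (chr10:67004798-67004857). Its levels were -0.12, 0.00, -0.18 and 0.70 in the MS mice and -1.05, -0.03, -0.68 and -0.85 in the control mice. A single control mouse, replicate 2, lay within the MS range, and a single MS mouse, replicate 4, stood well above the other 3. The difference was 0.75 (SE 0.26, adjusted p = 0.257), a 1.68-fold higher level with an interval of 1.12 to 2.54.

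Egr3, a relative that is also needed for muscle spindles, was near the limit of the arrays (chr14:70479222-70479281). Its signal was well above background in 2 of the 4 MS mice and in 1 of the 4 control mice. The levels were -4.31, -4.90, -5.01 and -4.76 in the MS mice, against -5.67, -4.88, -5.13 and -4.87 in the control mice. The ranges overlapped. With no filter on dim probes the difference was 0.39 (SE 0.22, adjusted p = 0.665), so a change of Egr3 was not detectable with this probe.

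Nr4a receptors have no known natural ligand that they need and are set mainly by how much of them is made. Nr4a1 (chr15:101105071-101105130), also called Nur77, stood at 4.82, 5.18, 5.24 and 5.59 in the MS mice and at 4.59, 5.35, 4.81 and 4.53 in the control mice. All MS mice were above 3 of the 4 controls, but control replicate 2 was above all MS mice except replicate 4. The difference of 0.39 (SE 0.21, adjusted p = 0.464) was not separated from the spread between mice at the threshold. It came almost wholly from 1 row of the slide, being 0.74 within the second row and 0.03 within the first, each with 2 mice of either group.

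Nr4a3 was the dimmest member that was tested. Its probe lies across an exon junction, between positions 48080690 and 48083876 of chromosome 4, and was printed in 10 spots on each array. The means over these spots were -3.84, -4.04, -4.63 and -3.98 in the MS mice, against -5.12, -4.49, -5.06 and -4.43 in the control mice, and the signal was not well above background in 2 of the controls, replicates 1 and 3. Only MS replicate 3 fell within the control range. The difference was 0.65 (SE 0.22, adjusted p = 0.246), but with normexp background correction it was 0.10. Among the spots of 1 array the SD ranged from 0.21 to 0.54, and the SD between mice was 0.35 in MS mice and 0.36 in control mice.

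Nr4a2, which is required for the making of midbrain dopamine neurons and is also expressed in the claustrum and deep cortical layers, was the only tested member with a lower mean in MS mice. The brighter of its probes (chr2:56960699-56960758, minus strand) read -3.50, -3.33, -2.06 and -0.81 in the MS mice and -3.26, 0.24, -3.30 and -2.05 in the control mice. The mice of each group thus spread over several log2 units, with the highest level of all in control replicate 2 and the next in MS replicate 4. The second probe (chr2:56959637-56959696) gave the same picture, at -4.58, -5.19, -3.55 and -2.38 in the MS mice and -4.36, -1.46, -4.69 and -3.60 in the control mice. The differences were -0.33 (SE 0.87, adjusted p = 0.911) and -0.40 (SE 0.80, adjusted p = 0.876), far within the spread between mice. For the brighter probe the difference was -1.91 within the first row of the slide and 1.24 within the second, and it became 0.45 without control replicate 2 and 0.02 without MS replicate 1.

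2 markers of cortical excitatory neurons varied over the same mice. Tbr1, a factor of deep cortical layers, stood at -3.51, -2.88, 0.86 and 0.54 in the MS mice and at -1.27, 0.61, -1.19 and -0.02 in the control mice. Neurod2, another cortical factor, read -3.25, -3.28, -1.17 and -1.54 in the MS mice and -4.68, -0.86, -3.56 and -3.30 in the control mice. MS replicates 3 and 4 and control replicate 2 were the 3 highest mice for both markers, and for Nr4a2 they were 3 of the 4 highest. Across the 8 arrays, which share the scaling, Nr4a2 correlated with Neurod2 at a Pearson r of 0.82, with Tbr1 at 0.78 and with Emx1, the third marker tested, at 0.53, which is given as a description. Emx1, well above background on 4 of the arrays, was at -4.60, -5.66, -3.95 and -4.83 in the MS mice and at -5.37, -3.85, -4.46 and -3.69 in the control mice. With group means removed Nr4a2 also followed other members, Arc at 0.91, Nr4a1 at 0.84 and Egr2 at 0.84. Of the 6 cortical markers, 3 were tested, Slc17a7 and Neurod6 were among those that were not, and the summed level of those tested was 0.233 to 2.33 in MS mice and 0.477 to 2.15 in control mice, in units of the 75th percentile. Of the claustrum markers, Gnb4 differed by 0.08 (SE 0.10) and Ntng2 was not tested. The part of such cells in the Nr4a2 signal was not tested.

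**Figure D2:**
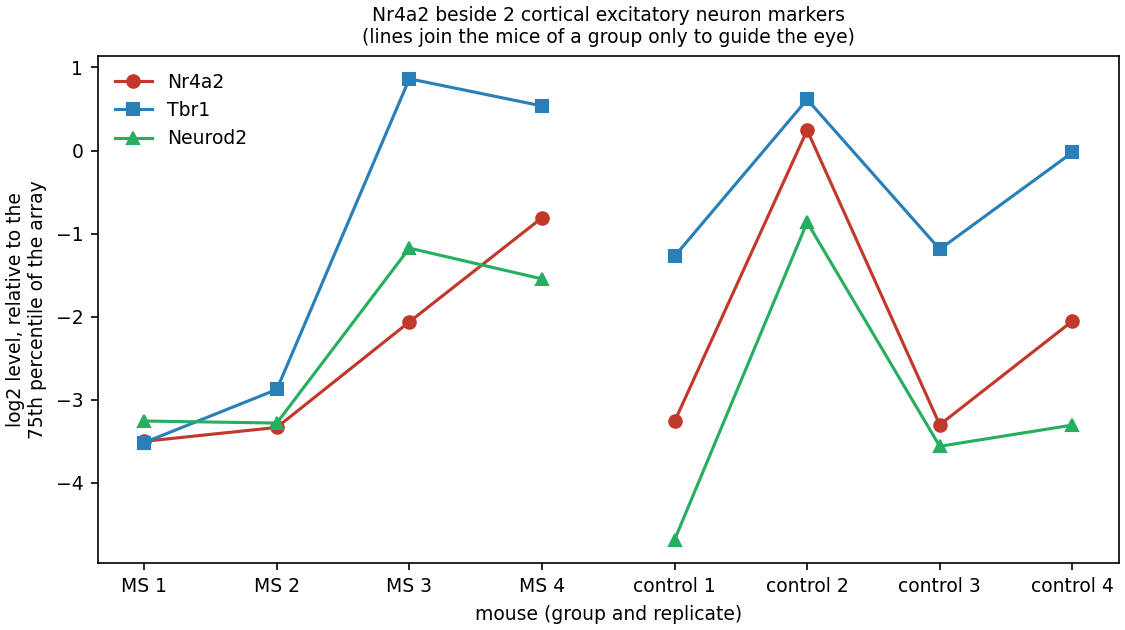
Level of Nr4a2 and of 2 cortical excitatory neuron markers, Tbr1 and Neurod2, in each mouse, with MS mice on the left, as log2 signal relative to the 75th percentile of the array. All 3 genes are high in control replicate 2, where Nr4a2 reaches 0.24. Nr4a2 and Tbr1 are lowest in MS replicates 1 and 2, where Neurod2 lies above control replicates 1, 3 and 4. In control replicates 1 and 3 Nr4a2 is nearly as low (-3.26 and -3.30), while Tbr1 is at -1.27 and -1.19.

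Npas4, a neuronal factor that is induced almost only by calcium and shapes inhibitory synapses, was measured on chr19:4984356-4984415. It read 2.18, 2.04, 1.91 and 2.10 in the MS mice, against 1.75, 2.21, 1.11 and 1.92 in the control mice. The MS mice lay close together, and the control mice ranged both below and above them. The difference was 0.31 (SE 0.21, adjusted p = 0.549), and without control replicate 3, the lowest mouse, it was 0.10.

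Arc (chr15:74499592-74499651), whose RNA travels to active dendrites, stood at 3.13, 3.47, 3.38 and 3.72 in the MS mice and at 2.78, 3.61, 2.92 and 2.94 in the control mice. All MS mice were above 3 of the 4 control mice, but control replicate 2 was exceeded only by MS replicate 4. The difference was 0.36 (SE 0.19, adjusted p = 0.446), with an interval of the fold from 0.947 to 1.75, and was 0.55 without control replicate 2.

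Homer1 was covered by 5 probes, which separate its transcripts. The design assigns 2 probes to the long transcript (NM_147176) and 3 to the short one (NM_011982). The short transcript, which activity induces, keeps the 5′ coding part of the long one and then ends within an intron, so that 2 of its 3 probes lie in coding sequence that is known to be common to both forms. The third reaches past the point where the forms part, and ends with the stop codon of the short form. Probe sequences are shown in the order of the transcript, because they tell which form is read, with the stop codon in capitals (mm9, plus strand).
Shared part, first probe (chr13:94116595-94116654): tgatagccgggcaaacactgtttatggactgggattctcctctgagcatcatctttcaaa
Shared part, second probe (chr13:94125924-94125983): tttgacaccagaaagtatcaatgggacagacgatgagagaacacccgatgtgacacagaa
Short form (chr13:94126009-94126068): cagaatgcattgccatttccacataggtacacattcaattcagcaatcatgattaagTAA
Long form (chr13:94157507-94157566): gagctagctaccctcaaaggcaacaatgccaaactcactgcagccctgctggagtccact
In 1 reading frame the short-form probe holds 19 codons before its stop, and the other 2 frames are interrupted as well, while the long-form probe has a frame free of stops over its 20 codons. The brightest probe, which represents the gene, lies further downstream in the long transcript (chr13:94174815-94174874).

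All 5 Homer1 probes were higher in MS mice. The brightest long-form probe read 3.31, 3.34, 3.54 and 3.58 in the MS mice and 3.12, 3.24, 3.32 and 2.69 in the control mice, with a bare overlap between the lowest MS mouse and the highest control mouse. Its difference was 0.35 (SE 0.14, adjusted p = 0.323). The other long-form probe gave 0.93, 1.02, 0.91 and 1.21 in the MS mice and 0.69, 0.88, 0.83 and 0.37 in the control mice, a difference of 0.32 (SE 0.13, adjusted p = 0.303). On both probes control replicate 4 was the lowest mouse by a wide margin, and without it the difference on the brightest probe was 0.22.

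The probes in the shared part differed by 0.40 (SE 0.13, adjusted p = 0.238) and 0.41 (SE 0.14, adjusted p = 0.263), and the groups did not overlap in either, nor in the second long-form probe. The first read 1.96, 1.96, 1.94 and 2.31 in the MS mice and 1.56, 1.85, 1.79 and 1.36 in the control mice. The short-form probe differed most. It stood at 0.02, -0.15, 0.06 and 0.47 in the MS mice and at -0.87, -0.06, -0.28 and -0.80 in the control mice, so that only control replicate 2 lay within the MS range. This was a difference of 0.60 (SE 0.21, adjusted p = 0.254), or a 1.52-fold higher level with an interval of 1.097 to 2.11.

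Whether the short form changed more than the long one was tested on the log2 ratio between the probes in each mouse. The ratio of the short-form probe to the brightest long-form probe was -3.30, -3.49, -3.48 and -3.10 in the MS mice and -3.99, -3.31, -3.60 and -3.49 in the control mice. The ranges overlapped, and control replicate 1 had the lowest ratio of all. The ratio was 0.26 higher in MS mice, which an exact two-sided permutation test over the 70 arrangements did not separate from the spread between mice (p = 0.171, 0.800 after Benjamini-Hochberg adjustment over the 5 probe pairs of Homer1 and Nr4a2). The smallest p that this test can give is 0.0286. The difference in ratio was 0.12 without control replicate 1 and 0.35 without control replicate 2. Of the other pairs, the 2 probes in the shared part differed from the long form by 0.05 (p = 0.600) and 0.06 (p = 0.457), the second long-form probe by -0.02 (p = 0.800) and the 2 Nr4a2 probes from each other by -0.06 (p = 0.771), all by the same exact test. A change in the balance between the Homer1 forms was thus not detectable with 4 mice a group.

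**Figure D3:**
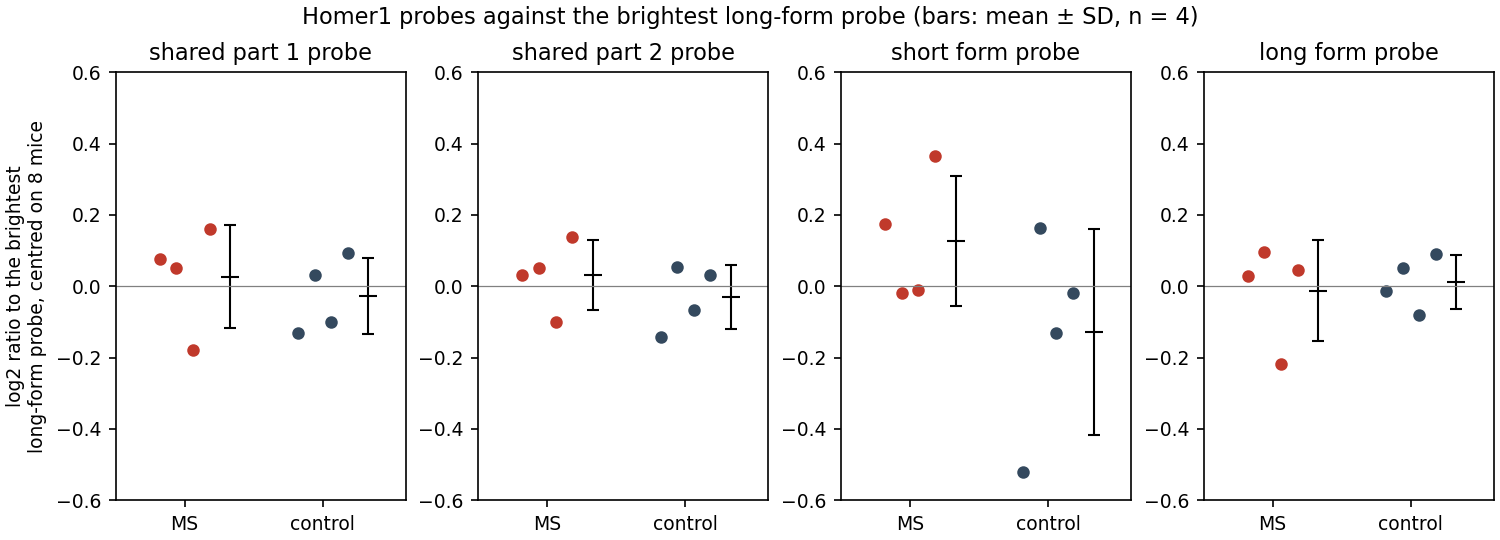
Log2 ratio of 4 Homer1 probes to the brightest long-form probe in each mouse, centred on the mean of the 8 mice, with MS mice on the left of each panel. Bars give the mean and SD of 4 mice. The short-form probe, with a difference of 0.26, shows the widest shift, and the ranges of both groups overlap in every panel.

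**Figure D4:**
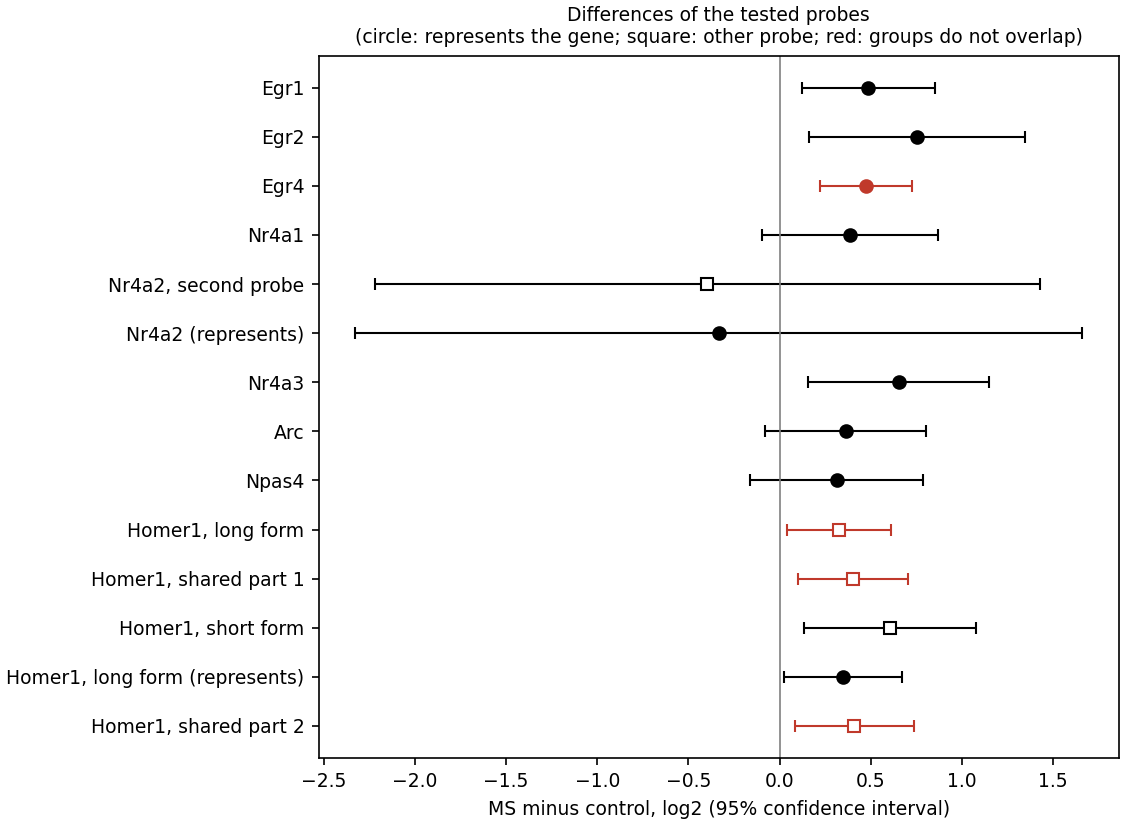
Difference between MS and control mice for the 14 tested probes, on the log2 scale with the 95% confidence interval of the limma fit. Circles represent the gene, squares are other probes of the same gene, and the probes in red have no overlap between groups. The intervals of 9 probes lie above 0, before any adjustment, and those of Nr4a2 are the widest.

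Most members varied together from mouse to mouse, while Nr4a3 and Npas4 did so less within the groups. Over the 28 pairs of members without Nr4a2, the median Pearson r across the 8 arrays was 0.74, and 0.55 once the group means had been removed, a description over arrays that share their scaling. With group means removed r ranged from -0.52 (Nr4a3 with Homer1) to 0.95, and Npas4 with Homer1 (-0.38), Nr4a3 with Egr1 (-0.38) and with Egr4 (-0.24), and Npas4 with Egr1 (-0.23) and with Egr4 (-0.09) were also negative. Over the 8 pairs with Nr4a2 the medians were 0.35 and 0.57. The nearest pairs were Nr4a1 with Arc, at 0.96 and 0.95 without the group means, and Egr1 with Homer1, at 0.96 and 0.94. The mean level of the 9 members, each centred on its mean over the mice, was -0.05, 0.07, 0.16 and 0.58 in the MS mice and -0.48, 0.41, -0.39 and -0.31 in the control mice. Without Nr4a2, whose range was the widest, it was 0.10, 0.21, 0.16 and 0.47 in the MS mice and -0.41, 0.15, -0.31 and -0.37 in the control mice. Control replicate 2 stood among the MS mice in both, and it was the highest control for 7 of the 9 genes, while MS replicate 4 was the highest of all mice for 5. Control replicate 4 was the lowest of all mice for 4 genes and replicate 1 for 3.

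Control replicate 4 also stood apart in the whole array, with 69.7% of probes well above background, against 57.3% to 61.2% in the other 7 mice. Without it, 8 of the 9 members were still higher in MS mice, and their median difference was 0.36. Within both rows of the slide the same 8 members, all but Nr4a2, were higher in MS mice. The differences were mostly larger within the second row, which held control replicate 4: 0.60 against 0.35 within the first row for Egr4, 1.03 against 0.48 for Egr2 and 0.62 against 0.11 for Arc. Nr4a3 was the other way round, with 0.44 within the second row and 0.87 within the first. The genes whose level over the mice was most like the mean of the members were Proser1 (Pearson r of 0.96 over 8 arrays), Bloc1s3 (0.95), Myh3 (0.95), Mst1r (0.94) and Efemp1 (0.94), among 22750 other genes. With group means removed, Proser1 (0.95) and Mst1r (0.95) were again among the nearest 5, beside Stx4a, Gpt2 and Ddah1. With Nr4a2 left out of the mean, a choice made after its values were seen, none of the first 5 names recurred, and the nearest 5 were Polg, Amer2, Mex3c, Ppp4r2 and Poc5, with r from 0.94 to 0.97.

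Genes related to the members had smaller median differences, and none passed the adjusted threshold. At an unadjusted limma p under 0.05, the genes higher in MS mice were 1 of 6 AP-1 subunits, 2 of 24 other rapid genes, 1 of 11 late genes, 7 of 18 upstream activators and 4 of 15 partners, against the 6.35% of all probes, to which the shares of the other rapid genes and of the late genes are near. At the same unadjusted cutoff, the only gene of these lists lower in MS mice was Plk3, against 7.71% of all probes. The AP-1 subunits are the other large family of rapid activity-induced factors, and 4 of the 6 tested were higher in MS mice, with a median of 0.11. Fosl2 led them with 0.67 (SE 0.15, adjusted p = 0.130). By size of difference Fosb with 0.27 (SE 0.14, adjusted p = 0.432), Jun with 0.19 (SE 0.09, adjusted p = 0.362) and Jund with 0.02 (SE 0.07, adjusted p = 0.927) followed. Junb with -0.09 (SE 0.16, adjusted p = 0.852) and Fos with -0.09 (SE 0.23, adjusted p = 0.907) had lower means in MS mice. Like Egr4, Fosl2 passed the threshold with normexp (adjusted p = 0.0240), with the deposited values (0.0426) and with the trend and robust moderation (0.0382). The study also names Fosl2 among the genes changed in these data.

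Of the 26 other rapid genes, 24 were tested and 19 were higher in MS mice, with a median of 0.18. None passed, and those with the smallest p were Csrnp1, a nuclear factor (0.31, SE 0.08, adjusted p = 0.155), the kinase Plk3, which was lower in MS mice (-0.33, SE 0.12, adjusted p = 0.265), the clock gene Per1 (0.29, SE 0.12, adjusted p = 0.327) and the MAP kinase phosphatase Dusp1 (0.20, SE 0.09, adjusted p = 0.372). Late genes, many of which encode secreted peptides, were higher in 8 of 11 with a median of 0.21. They were led by prodynorphin, Pdyn (0.27, SE 0.10, adjusted p = 0.294), with Inhba (0.42, SE 0.21), Nptx2 (0.33, SE 0.17) and Vgf (0.21, SE 0.11) next.

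Among 18 upstream activators 14 were higher, with a median of 0.15. The kinase Camk2a had 0.31 (SE 0.07, adjusted p = 0.121), and the calcium kinase Camk4 0.31 (SE 0.12, adjusted p = 0.322). The SRF coactivators Mrtfb and Mrtfa had 0.23 (SE 0.09) and 0.21 (SE 0.09). Camk2a passed with normexp (adjusted p = 0.0475) and with the trend and robust moderation (0.0292), but not with the deposited values (0.0910). Partners of the members were higher in 8 of 15, with a median of 0.05. The 4 with the smallest p were Rxrg, which pairs with Nr4a1 and Nr4a2 (0.43, SE 0.17), the Homer-bound receptors Grm5 (0.21, SE 0.08) and Itpr1 (0.42, SE 0.17), and Nab2, which represses Egr factors (0.26, SE 0.11), all with an adjusted p between 0.303 and 0.321.

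Cell type markers moved beside the members. The 10 markers of medium spiny neurons, the main neurons of the striatum, were all higher in MS mice, with a median of 0.36, close to the 0.39 of the members. Among those with the smallest p were Foxp1 (0.46, SE 0.15), Adora2a (0.58, SE 0.20) and Rgs9 (0.41, SE 0.17), and no marker of the list passed the threshold. Their summed level was 473 to 573 in MS mice and 308 to 512 in control mice, lowest in control replicate 4, in units of the 75th percentile. When each array was set against the mean of these markers, an alternative chosen after the data had been seen, the median of all probes moved to -0.37 and that of the members to 0.01, so that 5 of the 9 members were above 0, against 3.20% of all probes. This scaling takes the same amount from the difference of every gene and leaves the order of the differences as it was. In this scaling Egr4 differed by 0.10 (adjusted p = 0.627), Egr2 by 0.38 and Arc by -0.01. The markers' part in the differences of the members was not tested further.

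Markers of pallidal neurons, astrocytes, oligodendrocytes and microglia were mostly lower. Those of pallidal neurons were higher in 1 of 6, with a median of -1.34, led by Lhx8, Npas1, Vamp1 and Kcnc2. Their summed level was 27.02 to 28.9 in MS mice and 31.7 to 37.4 in control mice. Most of these sums came from Lhx6, the brightest of the list, with a mean log2 level of 4.48 in MS mice and 4.35 in control mice. Lhx6 was the 1 marker that was higher (0.13, SE 0.10), and its other tested probe had the opposite sign. Astrocyte markers were higher in 1 of 7, with a median of -0.25 and sums of 28.1 to 30.8 in MS mice and 38.2 to 47.2 in control mice, led by Itih3, Agt, Gfap and Aldh1l1. Oligodendrocyte and microglia markers were higher in 0 of 6 each, with medians of -0.17 and -0.16. Markers of blood vessels (4 of 5 higher, median 0.08) and of blood cells (0 of 4, median -0.05) had smaller differences. No cell type list had a gene past the adjusted threshold, and the numbers with an unadjusted p under 0.05 were 4 medium spiny neuron markers (higher), 5 pallidal (lower), 4 astrocyte (lower) and 1 microglia marker (lower), against the shares of all probes given above. With the deposited values, 5 pallidal markers and 2 astrocyte markers (Itih3 and Agt) passed as lower in MS mice, where 0.979% of all probes did. The numbers were 5 and 2 with normexp (1.19% of probes) and 3 and 2 with the trend and robust moderation (1.18%), and no medium spiny neuron marker passed under any of these settings. The lists were chosen with earlier results of these data known, and the study names Npas1, Pvalb and Agt among its changed genes. These counts therefore describe the lists and are no separate support.

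**Figure D5:**
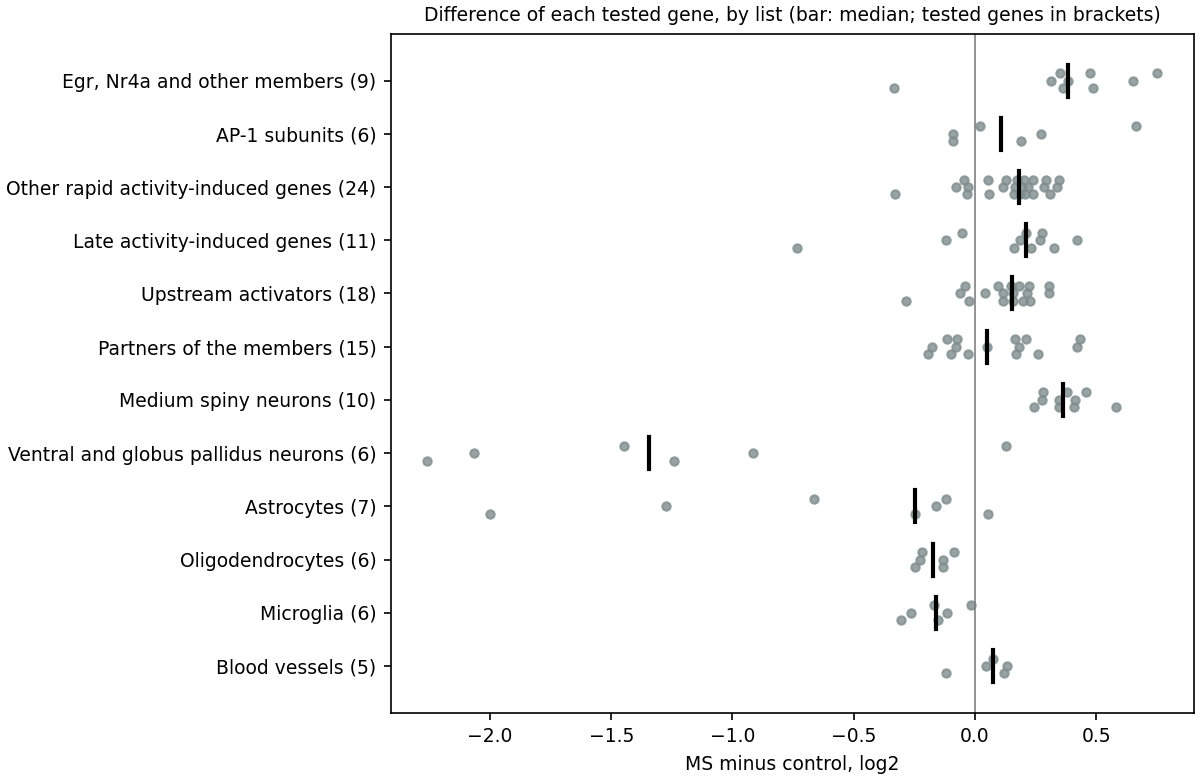
Difference between MS and control mice of each tested gene, on the log2 scale, by list, with the number of tested genes in brackets and the median as a bar. The members have a median of 0.39 and the medium spiny neuron markers one of 0.36, while pallidal markers have one of -1.34.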

How the data were processed

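The authors deposited scanner files with the linear intensity of every spot. Per the submitters' processing notes, Agilent Feature Extraction 10.10.1.1 read the arrays, and it subtracted local background. A second deposited table gives log2 values of 31261 probes. Set against the scanner files these values followed the log2 mean signal (correlations of at least 0.9997), so that they are levels without centring and their direction is that of the signal, while the normalization behind them is not given in the sources used here. The array design in the file headers differs from that in the methods, and probe names and mm9 coordinates are those of the headers. All 8 arrays lay on 1 slide, in 2 rows with 2 mice of each group.

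Controls and outlier-flagged spots (from 122 to 189 an array) were dropped, no spot was saturated, and repeated spots were averaged. Levels are the log2 of the processed signal after subtraction of each array's 75th percentile. Probes well above background on at least 4 arrays were tested with limma 3.58.1 (lmFit, eBayes) in R 4.3.3, with Benjamini-Hochberg adjustment over all 33111 probes. The brightest probe on average represented a gene. Names came from RefSeq (GRCm38.p6, names and promoters alone). The number of arrays limits the precision. In a simulation over 33111 probes, 79 of 100 probes changed 2-fold and 100 of 100 changed 4-fold were recovered, with 7 false calls. It used the real means, but independent normal noise with the moderated variances, capped for the most variable probes. Recovery in the real data may therefore be lower. Changes below 2-fold were not simulated, and the largest difference of a member, that of Egr2, was 1.68-fold. The simulation thus does not say how often differences of the size seen in the members would be recovered. The members and lists were chosen with earlier results of these data known. The named genes are all members with all probes, of each other list those past the threshold or else the 4 with the smallest p, and the 5 genes most like the members with a usual symbol; a few markers that this rule names are not reported here. Alternatives were normexp correction (offset 50), the deposited values, median scaling, quantile normalization, no filter, a filter on all 8 arrays, trend and robust moderation, slide row or column as a block, averaging the probes of each gene, leaving out each mouse, and, added after the data had been seen, scaling on medium spiny neuron markers.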

Additional observations from a re-analysis of the deposited data

Results flagged for a closer look

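Of 30 groups of 4 mice checked over the 15 probes, 1 held a mouse set apart from the other 3 by most of the range of its group, where chance alone gives about 5%. It was MS replicate 4 on the first Homer1 probe of the shared part, at 2.31, with the other MS mice between 1.94 and 1.96. Without this mouse the difference between groups on that probe was 0.31, against 0.40 with all 8 mice.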

How the results depend on the processing

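Of the 9 member genes, Egr1, Egr2, Egr4, Nr4a1 and Nr4a3 kept their direction under every alternative that gave a value for them (19 each, and 18 for Nr4a3, which is not well above background on all arrays). Not all of these alternatives could turn a direction. The choice of filter, the trend and robust moderation and the slide row or column as a block leave each difference as it is. Averaging the probes does so too for these genes, each with a single probe. The number of members past the threshold was 1, which was Egr4, with normexp, with the deposited values and with trend and robust moderation, and 0 otherwise. Over all probes these settings called 486, 375 and 504, against 1; median scaling called 96, the filter on all 8 arrays 113, the mean over probes 9, no filter 0 and scaling on medium spiny neuron markers 334. Relative to those markers, which shifts all genes alike and leaves 3.20% of probes above 0, 5 members were higher, the median member difference was 0.011, and Arc (-0.010), Npas4 (-0.062), Homer1 (-0.025) and its second long-form probe (-0.049) turned sign. Leaving out 1 mouse gave a median of 0.30 to 0.55 with 8 or 9 members higher, and Nr4a2 from -0.87 to 0.45 (second probe -0.91 to 0.29).

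Probe ratios near 0 turned sign too. The Nr4a2 ratio was 0.052 with normexp, 0.066 with the deposited values, 0.028 with quantile normalization and -0.20 to 0.055 over the mice left out. The ratio of the second shared Homer1 probe was -0.015 with normexp and that of the first -0.013 with the deposited values, and the second long-form probe gave -0.061 to 0.045 over the mice left out. No pair passed under any of these settings. The causes were not tested. No paired analysis was possible because replicate numbers follow the order of the samples and pair no mice; arrays of 1 slide column share only their position, and with that as a block 7 members in place of 5 had an unadjusted p under 0.05, and 0 passed. With the slide row as a block, by contrast, Homer1 left the 5 genes at that cutoff. Dim signals limit Egr3 and Nr4a3.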
